A study of Mus musculus with 18 samples.

Results

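The genes of the mouse proteasome were followed across 18 arrays of hippocampal RNA. They were chosen by symbol alone: a gene entered where a probe set annotated to it and to no other gene carried a symbol beginning Psma, Psmb, Psmc, Psmd, Psme, Psmf or Psmg followed by a number. This gave 47 genes on 100 probe sets, of 18194 genes with a probe set of their own, and for each gene the probe set of highest mean signal was used. Of these, 45 had a mean signal above 20, the level above which the study took a probe set as expressed, and were tested among 11657 genes. Psma8, the testis form of a core subunit, ranged over the 18 arrays between 0.311 and 12.98 and Psmb11, the subunit of the thymus, between 0.343 and 11.8, so neither was tested. Psme2, the partner of Psme1, lay only on a probe set shared with another gene and was not included.

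Male C57BL/6J mice were compared in 6 groups of 3 arrays each, and whole hippocampus was taken in every group. The 12 m group had been reared for 12 months at the study's institution. The IH28D, IH5DR2 and IH5D groups, which began at an age of 10 weeks, underwent intermittent hypoxia treatment (IHT), in which nitrogen was let in for 1 min and room air for 2 min, so that inspired oxygen swung between 21% and 5% every 3 min, for 8 h each day. IH28D mice were treated for 28 days, IH5D mice for 5 days, and IH5DR2 mice for 5 days followed by 2 days of recovery, counted as 64 h of normoxia. Ctrl28 mice were kept for 28 days in normoxia as the control of IH28D, and Ctrl mice were the untreated control of the other groups. The labels do not say that each array came from a separate mouse, so p-values measure the spread between arrays, which may be technical.

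The proteasome is the particle that degrades proteins marked with ubiquitin. Its barrel, the 20S core, is built of rings of α subunits (Psma genes) around rings of β subunits (Psmb genes), of which Psmb5, Psmb6 and Psmb7 hold the constitutive catalytic sites. A 19S cap binds the core. Its base holds the ATPases Psmc1 to Psmc6, which unfold the substrate, and the non-ATPase subunits Psmd1, Psmd2 and Psmd4. Its lid holds the deubiquitinase Psmd14. In the immunoproteasome, which interferon induces, Psmb8, Psmb9 and Psmb10 take the places of Psmb5, Psmb6 and Psmb7, and Psme1 forms part of the cap PA28. In neurons, degradation by the proteasome is known to take part in protein turnover at synapses.

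Each value is the signal of a probe set, computed by the authors with the MAS5 method and printed here unlogged. A gene was said to rise or fall where limma's moderated test over all 11657 genes gave an adjusted p below 0.05 (Benjamini-Hochberg, two-sided), and its change is a log2 fold change with its standard error (SE). RNA integrity was followed by the 3′ to 5′ gap, the log2 difference between 3′ and 5′ control probe sets of Actb and Gapdh. It was 0.617 to 0.861 on the 12 m arrays, 2.39, 0.822 and 0.966 on the 3 Ctrl28 arrays, and 0.328 to 0.535 on the other 12, so Ctrl28 array 1 stood apart and counts of genes are given with and without it. All 10 markers of hippocampal neurons were above the minimum signal, and their summed signal, in which the brightest weigh most, was between 11515 and 15277 on every array. The mean of their log2 signals, in which each weighs the same, was 7.39 on 12 m array 3. On the other arrays it was 8.95 to 9.30, so 12 m array 3 stood apart. The markers of choroid plexus, a tissue next to the hippocampus, had summed signals of 768 to 1801 in the 12 m group, against 1909 to 20107 on the Ctrl arrays and 17982 to 22312 on the Ctrl28 arrays. In whole tissue, fewer cells of a type and less RNA per cell cannot be told apart.

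**Figure D1:**
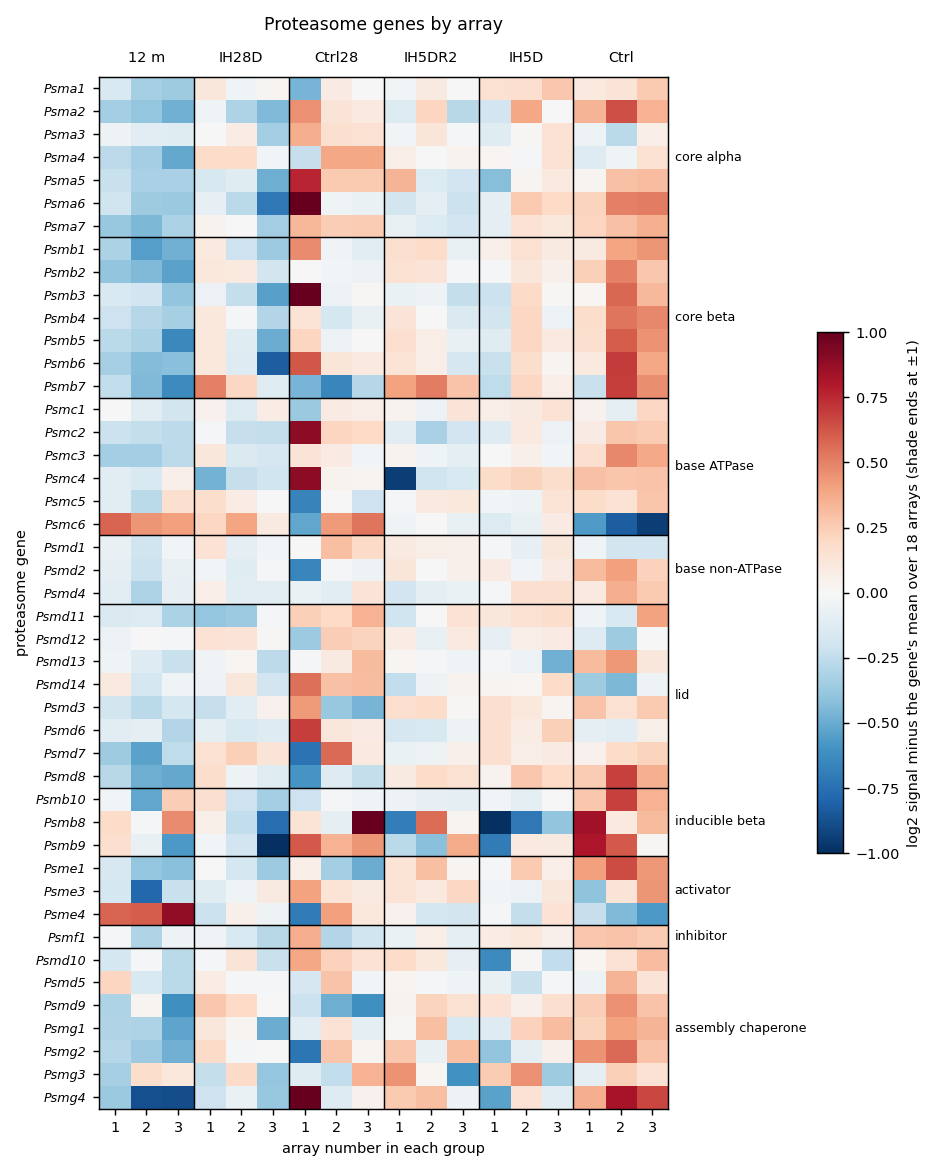
Log2 signal of each of the 45 tested proteasome genes (down the page, by class) on each of the 18 arrays (across, by group), as the difference from the gene's mean over all arrays. Most core genes are low on the 12 m arrays and high on the Ctrl arrays, whereas Psmc6 and Psme4 run the other way.

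The 12 m group was set against Ctrl to ask how the hippocampus of older mice differed. Of the 45 tested proteasome genes 27 fell and 2 rose, where 31.6% of all genes tested fell and 21.7% rose. Their median change was -0.45 on the log2 scale, against -0.23 over all genes. The 20S core fell almost throughout, at 12 of its 14 genes, whereas the base and lid of the cap were mixed, with 8 of 17 falling and 1 rising. The genes that rose were Psmc6, an ATPase of the base, and Psme4, the PA200 activator that binds the ends of the core. The scale of the whole array bears on these counts: with the arrays centred on their medians the change of all genes went to a median of -0.47 and 35 proteasome genes fell and 2 rose, with 45.6% of all genes falling and 16.2% rising. Without Ctrl28 array 1, which enters the shared estimate of the spread, 31 fell and 2 rose, of all genes 36.9% and 23.6%. By the study's own test of unequal variances, after adjustment, 7 fell and 1 rose, as did 663 and 854 of all 11657 genes.

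In the 20S core the median change was -0.70. Psmb2, a structural β subunit (chr4:126677637-126709715), had signals of 429, 416 and 390.3 on the 12 m arrays, against 669, 804 and 684 on the Ctrl arrays. The groups were far apart, and the change was -0.80 (SE 0.11, adjusted p = 4.67e-05). Psma7, an α subunit (chr2:180036367-180042464), had 550.5, 523 and 573 on the 12 m arrays and 828, 876 and 917 on the Ctrl arrays, a change of -0.67 (SE 0.11, adjusted p = 0.000206). Psma2, another α subunit, had 928, 898 and 842 at 12 m against 1491, 1840 and 1494 in Ctrl and fell by 0.85 on the log2 scale. No 12 m array reached the lowest Ctrl array in these 3 genes.

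The constitutive catalytic subunits fell together. Psmb5, which carries the chymotrypsin-like activity (chr14:54614120-54617995), had 976, 946 and 753 on the 12 m arrays against 1316, 1789 and 1604 on the Ctrl arrays (-0.81, SE 0.16, adjusted p = 0.00057). Psmb6, with the caspase-like activity, had 647, 599.9 and 607 at 12 m against 869, 1321 and 1059 in Ctrl (-0.79, SE 0.21, adjusted p = 0.00455). For Psmb7, with the trypsin-like activity, the arrays read 268, 234 and 204 at 12 m against 273, 513 and 439 in Ctrl (-0.75, SE 0.21, adjusted p = 0.00621). The groups did not overlap in any of the 3, although 1 Ctrl array of Psmb7 lay next to the 12 m arrays. Among the rest of the core, Psma1, Psma4, Psma5, Psma6, Psmb1 and Psmb4 fell by 0.37 to 0.76 on the log2 scale. The change of Psma5 (-0.50) did not pass in the fits without 12 m array 2 or 3 or Ctrl array 2 or 3. The core genes that did not pass were Psma3, at -0.01, and Psmb3, at -0.55 (adjusted p = 0.0521).

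**Figure D2:**
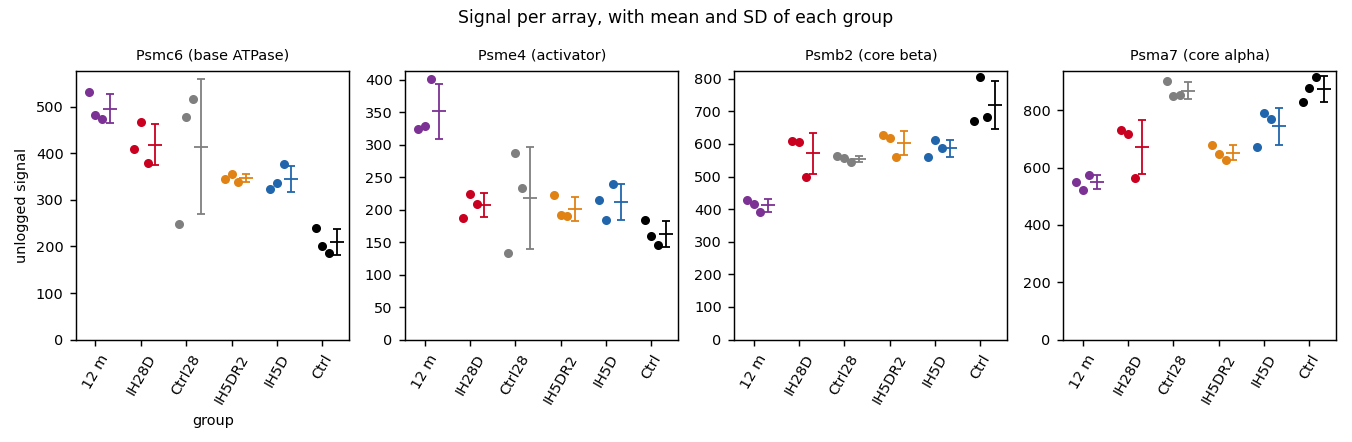
Unlogged signal of Psmc6, Psme4, Psmb2 and Psma7 on each array (points), by group. Psmc6 and Psme4 are highest in 12 m and lowest in Ctrl by group mean, and Psmb2 and Psma7 show the opposite order of these groups.

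The base and lid of the cap had a median change of -0.35. Psmc6 (chr14:45329823-45349074) had 531, 483 and 473 on the 12 m arrays, against 241, 201 and 186 on the Ctrl arrays, with means of 496 ± 31.1 in 12 m and 209 ± 28.4 in Ctrl (SD, n = 3 each). Each 12 m array was above every Ctrl array, and the change was 1.25 (SE 0.20, 95% interval 0.82 to 1.69, adjusted p = 0.000121). All 3 of its probe sets rose, by 1.25, 1.77 and 2.11. The other ATPases did not follow it: Psmc2 and Psmc3 fell, by 0.44 and 0.65 on the log2 scale, and Psmc1, Psmc4 and Psmc5, at -0.15, -0.35 and -0.28, did not pass. The fall of Psmc2 was lost without Ctrl array 2 or 3. Of the non-ATPase base subunits, Psmd2, a scaffold that receives ubiquitin carriers, fell by 0.45 and Psmd1 was at 0.04. Psmd4, a ubiquitin receptor, had 589, 511 and 599 at 12 m against 678, 813 and 759.7 in Ctrl and fell by 0.41 (adjusted p = 0.00703), with no overlap of the groups.

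In the lid 4 of 8 genes fell. Psmd8 (chr7:29174187-29180673) had 458, 395 and 390.3 on the 12 m arrays and 662, 893 and 711 on the Ctrl arrays, a change of -0.86 (SE 0.14, adjusted p = 0.000161). Psmd3, Psmd7 and Psmd13, also of the lid, fell by 0.44, 0.53 and 0.42 on the log2 scale. Psmd14, the deubiquitinase that cuts ubiquitin chains off the substrate, had 1357, 1121 and 1232 at 12 m and 993, 930 and 1223 in Ctrl. Its groups overlapped and its change was 0.24 (95% interval -0.04 to 0.53, adjusted p = 0.122). Psmd6, Psmd11 and Psmd12 were at -0.11, -0.27 and 0.14 and did not pass.

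Among the activators, Psme4 (chr11:30771775-30881150) had 324, 329 and 400.4 on the 12 m arrays, against 184, 159 and 145 on the Ctrl arrays. The lowest 12 m array was well above the highest Ctrl array, and the change was 1.11 (SE 0.21, 95% interval 0.65 to 1.56, adjusted p = 0.000418). The 4 probe sets of Psme4 above the minimum signal all rose, by 1.11, 1.12, 1.28 and 1.76. Psme3, which forms the nuclear cap PA28γ, was at -0.45 (adjusted p = 0.0571). Psmf1, an inhibitor of the core also called PI31, had 118, 97.3 and 116 at 12 m against 144, 146 and 143 in Ctrl. It fell by 0.39 (adjusted p = 0.0415), a call that was lost in 9 of the 18 fits that left out 1 array, among them all 3 without a Ctrl array.

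The assembly chaperones bring the subunits together and are absent from the finished particle. Of their 7 genes 4 fell, with a median change of -0.63. Psmg4 (chr13:34162964-34178172) had 70.4, 49.6 and 49.2 on the 12 m arrays against 117, 161 and 144 on the Ctrl arrays, so that no arrays overlapped (-1.33, SE 0.25, adjusted p = 0.000467). Psmg1 and Psmg2, which pair to start the α ring, fell by 0.70 and 0.81. Psmd9, a chaperone of the base, had 101, 127 and 81.6 at 12 m against 148, 171 and 152 in Ctrl and fell by 0.63, although its 2 dimmer probe sets were at -0.11 and 1.01. Psmg3, Psmd5 and Psmd10 were at -0.11, -0.21 and -0.31 and did not pass.

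The immunoproteasome was described by the 4 tested genes Psmb8, Psmb9, Psmb10 and Psme1, whose median change at 12 m was -0.58. Psme1 (chr14:55578494-55581527) had 361, 308 and 301 on the 12 m arrays against 537, 635 and 545 on the Ctrl arrays and fell by 0.82 on the log2 scale (SE 0.15, adjusted p = 0.000337). Psmb10 had 269.9, 192 and 325 at 12 m against 331, 440.0 and 349 in Ctrl and fell by 0.53 (adjusted p = 0.0157), a call lost without 12 m array 2 or Ctrl array 2. Both groups of Psmb8 lay near the minimum signal, at 22.6, 19.7 and 27.7 on the 12 m arrays and 35.7, 21.3 and 24.8 on the Ctrl arrays (-0.21, 95% interval -1.10 to 0.69). Psmb9 read 22.7, 19.2 and 13.6 at 12 m and 35.4, 31.0 and 20.4 in Ctrl (-0.64, 95% interval -1.47 to 0.20, adjusted p = 0.166). The wide intervals of the 2 dim genes leave a change of either sign possible at this signal.

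**Figure D3:**
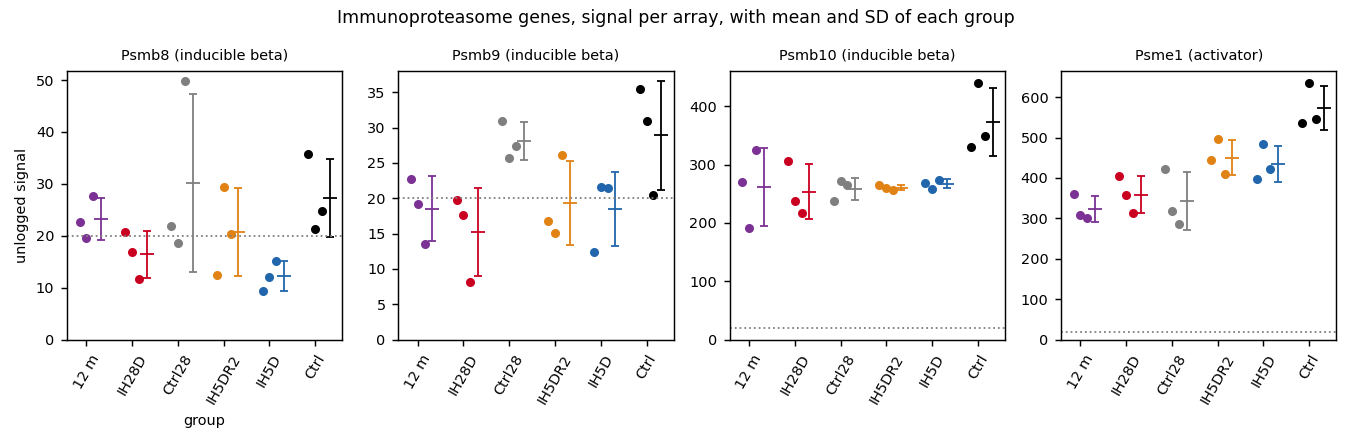
Unlogged signal of Psmb8, Psmb9, Psmb10 and Psme1 on each array (points), by group, with a dotted line at the minimum signal of 20. Psmb8 and Psmb9 lie near the line in every group, and Psme1 and Psmb10 have their highest group means in Ctrl.

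Genes known to accompany the immunoproteasome under interferon were read beside it. Of 18 listed genes 12 were tested. At 12 m Bst2, Ifi27 and the class I heavy chain H2-K1 fell, by 1.27, 0.99 and 0.60 on the log2 scale. None rose, and the share falling was smaller than the 31.6% of all genes. A negative change was seen in 10 of the 12, as in 7194 of all 11657 genes, with medians of -0.50 and -0.23. The summed signal of the microglial markers was 3473 to 3782 in the 12 m group, against 4166 to 5147 in Ctrl, with 7 of 12 falling and 2 rising. Of the 10 choroid plexus markers 8 fell. Of the 10 neuronal markers 4 fell and 1 rose, with a median of -0.70. Their summed signal was nevertheless higher at 12 m, at 13750 to 15277 against 11515 to 12018 in Ctrl. Their mean log2 signal was lowest on 12 m array 3. Without that array 24 proteasome genes fell and 2 rose, as did 3312 and 2425 of all 11657 genes. Of 7 tested markers of oligodendrocytes 4 fell and 2 rose, with a median of -0.66. Of 8 astrocyte markers 3 fell and 2 rose, with a median of -0.11. Of 8 markers of endothelial cells and pericytes none fell and 1 rose, with a median of -0.13. The median deviation of the core genes from their own means was -0.25, -0.35 and -0.41 in the 12 m group, against 0.10, 0.51 and 0.35 in Ctrl. The part of these cell types in the falls was not tested. In a fit that held the gap as a covariate 30 proteasome genes fell and 2 rose at 12 m, with 38.4% of all genes falling and 24.1% rising. The slope of that fit comes from differences within groups, where Ctrl28 array 1 stood furthest out. The gap was 0.617 to 0.861 at 12 m and 0.339 to 0.469 in Ctrl. It did not overlap, so the gap and the group cannot be told apart in this comparison.

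**Figure D4:**
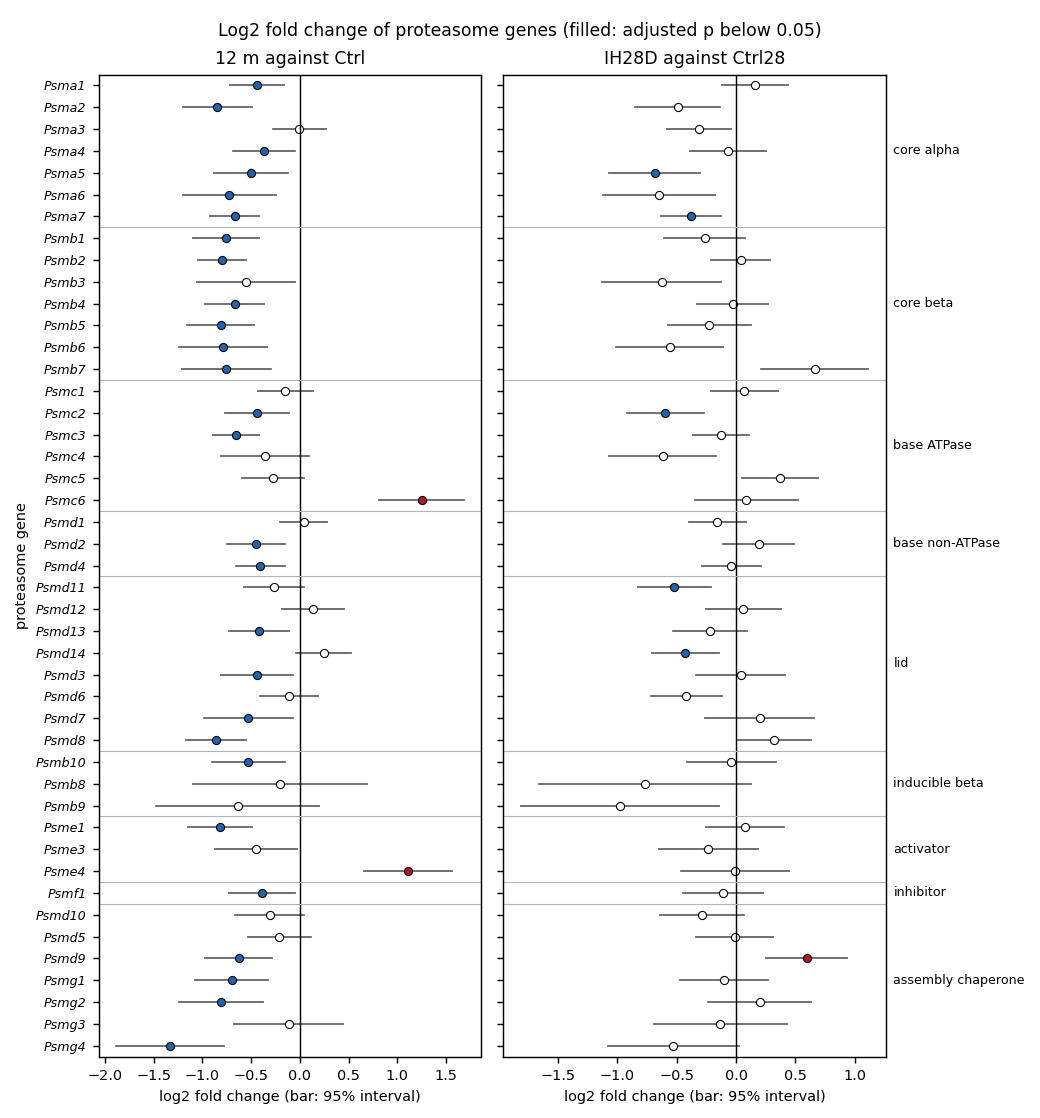
Log2 fold change (points) with its 95% interval (bars) of each tested proteasome gene for 12 m against Ctrl and for IH28D against Ctrl28, filled where the adjusted p was below 0.05. At 12 m, 27 genes fell and 2 rose, and after 28 days of IHT 5 fell and 1 rose.

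Several genes were read by more than 1 probe set. Of 31 further probe sets above the minimum signal, of 21 genes, 23 changed in the same direction as the chosen one at 12 m. Dim probe sets of Psma1 and Psma3, with mean signals of 45.0 and 33.4, rose by 1.26 and 1.66, where the chosen probe sets were at -0.44 and -0.01. Probe sets can read different transcript ends, and which transcripts these read was not tested. The second probe sets of Psmb3 and Psmc4 fell, by 0.81 and 0.66, where the chosen ones, at -0.55 and -0.35, did not pass.

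Set against Ctrl28 in place of Ctrl, the 12 m group had 14 proteasome genes that fell and 1 that rose, where 8.3% of all genes fell and 8.05% rose. The median change was -0.31 over the proteasome genes and -0.03 over all genes. In the core 7 of 14 genes fell, with a median of -0.55, and in the base and lid 5 of 17, with a median of -0.26. Psma7 fell by 0.66 and Psmb2 by 0.43. None of the 4 immunoproteasome genes fell, with a median of -0.15. Mean signals at 12 m and in Ctrl28 were 323 and 343 for Psme1, 262 and 258 for Psmb10, and 236 and 231 for Psmb7. The falls of these genes against Ctrl were thus not seen against Ctrl28. Psme4 rose, by 0.75, but without Ctrl28 array 1 its change was 0.43 (adjusted p = 0.0581) and 13 genes fell and none rose, with 7.86% of all genes falling and 9.46% rising. Psmc6 was at 0.33 (95% interval -0.10 to 0.76), and the Ctrl28 arrays, at 248, 477 and 516, overlapped with the 12 m arrays.

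The control groups themselves differed. In Ctrl28 against Ctrl 11 proteasome genes fell and 3 rose, with 21% of all genes falling and 16.9% rising. Psmc6, Psmd14 and Psmd1 rose, by 0.92, 0.67 and 0.30, and the falls reached -0.78 at Psmb7, -0.77 at Psmd9, -0.76 at Psme1 and -0.75 at Psmd8. Without Ctrl28 array 1, 16 fell and 6 rose, of all genes 29.5% and 23.8%. Days in normoxia, age and any difference in when the groups were processed cannot be told apart in this contrast.

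The promoters of the proteasome genes were read because many of them fell together at 12 m, while Psmc6 and Psme4 rose. Windows of 300 bases, 250 before and 50 after a transcript start, were taken from RefSeq on GRCm38.p6 and were at hand for 39 of the 47 genes, in 41 windows. TGACNNNGC, the core of the antioxidant response element bound in mammals by Nfe2l2 and Nfe2l1, was searched on both strands. It stood in 6 of the 41 windows (14.6%), against 12.4% of all 32851 windows. The box CCAAT stood in 14 of the 41 (34.1%), against 37.4% of all windows. The genes with the element core were Psmb5, Psmb6 and Psmd9, which fell at 12 m, Psmc6 and Psme4, which rose, and Psmd12, which did not pass. Stretches of 120 bases are shown for 2 genes that rose and 2 that fell, 5′ to 3′ on the strand of the gene, with the match in capitals. The matches have only the fixed bases of TGACNNNGC in common, and the part of this element in the changes was not tested.
Psmc6, chr14:45329574-45329693, plus strand of the genome, match on the opposite strand: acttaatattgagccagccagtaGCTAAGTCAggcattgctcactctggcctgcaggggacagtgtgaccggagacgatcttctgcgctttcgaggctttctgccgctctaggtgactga
Psme4, chr11:30771657-30771776, plus strand of the genome, match on the opposite strand: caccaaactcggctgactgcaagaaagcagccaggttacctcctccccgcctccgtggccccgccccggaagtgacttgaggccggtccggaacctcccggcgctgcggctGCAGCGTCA
Psmb5, chr14:54617996-54618115, minus strand of the genome, match on the gene's strand: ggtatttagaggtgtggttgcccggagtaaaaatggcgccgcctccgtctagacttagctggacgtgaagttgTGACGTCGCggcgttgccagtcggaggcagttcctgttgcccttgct
Psmd9, chr5:123228070-123228189, plus strand of the genome, match on the gene's strand: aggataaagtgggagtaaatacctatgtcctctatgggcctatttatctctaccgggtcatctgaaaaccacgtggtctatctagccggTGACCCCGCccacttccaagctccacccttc
A match of letters is a description and shows no binding.

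Short IHT was set against Ctrl to ask what 5 days of treatment changed and what remained after recovery. In IH5D against Ctrl 1 proteasome gene rose and none fell, where 5.4% of all genes rose and 1.12% fell. The gene was Psmc6, with 324, 337 and 377 on the IH5D arrays against 241, 201 and 186 on the Ctrl arrays, a change of 0.73 (SE 0.20, adjusted p = 0.0396). The call was lost in 9 of the 18 fits that left out 1 array, among them those without any 1 of the IH5D or IH5DR2 arrays, Ctrl array 2 or 3, or 12 m array 2. The median change was -0.23 over the proteasome genes and -0.09 over all genes. A negative change was seen in 33 of the 45, and in 6830 of all 11657 genes. At an unadjusted p below 0.05 there were 14 of the 45 genes by limma, with 29% of all genes, and the methods' own test of unequal variances called 10 unadjusted, with 22.2% of all genes, and none after adjustment.

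The count after 5 days depended on the arrays and on the model that set the spread. Same-numbered IH5D and Ctrl arrays deviated together, although the labels state no pairing and arrays of different numbers were not compared. With the replicate number as a block no proteasome gene passed in the fit of all 6 groups, where 3.23% of all genes rose and 0.489% fell. In a fit of these 2 groups alone without the block 5 fell and 1 rose, as did 816 and 1314 of all 11657 genes. With the block added to that fit, a choice made after seeing the data, 21 fell and 3 rose, where 18.4% of all genes fell and 16.7% rose. Those 24 genes took in 10 of the 14 core genes, all falling, and Psmc6, Psme4 and Psmd14, which rose. Without Ctrl28 array 1, which belongs to neither group but enters the shared spread, 10 genes fell and 2 rose, as did 9.19% and 14.2% of all genes. The log2 changes themselves were the same in these fits, with a median of -0.30 in the core and -0.09 in the base and lid.

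In IH5DR2 against Ctrl 1 proteasome gene rose and 1 fell, with 4.38% of all genes rising and 1.24% falling. Psmc6 had 346, 356 and 338 on the IH5DR2 arrays, above all 3 Ctrl arrays, a change of 0.74 (SE 0.20, adjusted p = 0.0414). Psma7 had 678, 648 and 626 on the IH5DR2 arrays against 828, 876 and 917 on the Ctrl arrays and fell by 0.42 (SE 0.11, adjusted p = 0.0414). With 1 array left out the call of Psmc6 was lost in 12 of 18 fits and that of Psma7 in 9, both of them without any 1 of the IH5DR2 arrays, without Ctrl array 2 or 3, without 12 m array 1 or 2 and without IH5D array 2 or 3. That of Psmc6 was also lost without IH5D array 1 or IH28D array 1 or 3. The median was -0.25 over the proteasome genes and -0.07 over all genes. Without Ctrl28 array 1, 12 fell and 1 rose, with 8.6% of all genes falling and 13.7% rising. Both short protocols were compared with the same 3 Ctrl arrays, so their changes share those values. Against IH5D itself no proteasome gene changed in IH5DR2 by limma, nor did any gene tested (0% rose and 0% fell), and 2 proteasome genes had an unadjusted p below 0.05, with 418 genes or 3.59% in all. The median difference over the proteasome genes was -0.01.

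After 28 days of IHT 1 proteasome gene rose and 5 fell against Ctrl28, where 6.06% of all genes rose and 2.44% fell. The median change was -0.13, against 0.02 over all genes. The falls lay in the core (Psma5 and Psma7), the base (Psmc2) and the lid (Psmd11 and Psmd14), and the rise was the base chaperone Psmd9. Psmc6 and Psme4, which rose at 12 m, were at 0.08 and -0.01, and without Ctrl28 array 1, the lowest Ctrl28 array of both, at -0.25 and -0.33 (adjusted p = 0.201 and 0.167). Without that array 4 proteasome genes fell and 1 rose, with 4.19% of all genes falling and 11.4% rising.

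Psma5 had 1009, 1039 and 802 on the IH28D arrays against 1914, 1353 and 1350.2 on the Ctrl28 arrays and fell by 0.69 (SE 0.18, adjusted p = 0.0226). Psmc2 read 1455, 1256 and 1251 in IH28D against 2739.8, 1706 and 1687 in Ctrl28 and fell by 0.60 (SE 0.15, adjusted p = 0.0209). In both, Ctrl28 array 1 was the highest array of the series. Without it they fell by 0.52 and 0.36 and still passed, while their calls were lost without IH28D array 3 and, for Psmc2, also without IH28D array 2. The further probe sets of these genes were at -0.19 and 0.11.

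Psmd11, a scaffold of the lid, had 779, 791 and 1002 on the IH28D arrays against 1204, 1171 and 1292 on the Ctrl28 arrays and fell by 0.52 (SE 0.14, adjusted p = 0.03). Its groups did not overlap, yet its other 3 probe sets were at 0.19, 0.21 and 0.35, and the call was lost in 4 of 18 fits with 1 array left out, those without IH28D array 1 or 2 or Ctrl28 array 2 or 3. Psmd14 had 1223, 1374 and 1110.0 in IH28D against 1861, 1555 and 1572 in Ctrl28 and fell by 0.43 (adjusted p = 0.0488), but without Ctrl28 array 1 it was at -0.34 (adjusted p = 0.0808). Psma7 had 733, 718 and 562 in IH28D against 902, 848 and 853 in Ctrl28 and fell by 0.38 (adjusted p = 0.0472). The calls of Psmd14 and Psma7 were lost in 16 and 15 of the 18 fits.

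Psmd9 had 150.0, 143 and 125 on the IH28D arrays and 107, 88.7 and 81.3 on the Ctrl28 arrays, with every treated array above every control array. It rose by 0.60 (SE 0.16, adjusted p = 0.0264), and by 0.71 without Ctrl28 array 1, but the call was lost without IH28D array 1 or 2 or Ctrl28 array 2 or 3. The Ctrl arrays of this gene, at 148, 171 and 152, overlapped with the IH28D arrays and reached above them. Psmb7 had 451, 367 and 292 in IH28D against 231, 202 and 262 in Ctrl28, at 0.66 (adjusted p = 0.0549). With the RNA integrity gap added to the fit 4 proteasome genes fell and 2 rose (4.94% and 11% of all genes), of which only Psmd9 was among those above, and Psmc6 and Psme4 fell, by 0.58 and 0.63. Ctrl28 array 1 had by far the widest gap, at 2.39, and as given above neither Psmc6 nor Psme4 passed without that array.

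Against Ctrl in place of Ctrl28, the IH28D arrays had 18 proteasome genes that fell and 1 that rose, with 15.8% of all genes falling and 17.5% rising. The falls took in 9 of the 14 core genes, at a median of -0.46, and 5 of 17 in the base and lid, at -0.29. Without Ctrl28 array 1, 25 fell and 3 rose, of all genes 23.5% and 21.1%. Psmc6 rose by 1.0, with 409, 468 and 379 on the IH28D arrays against 241, 201 and 186 on the Ctrl arrays. The number of genes called thus depended on which control was used.

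**Figure D5:**
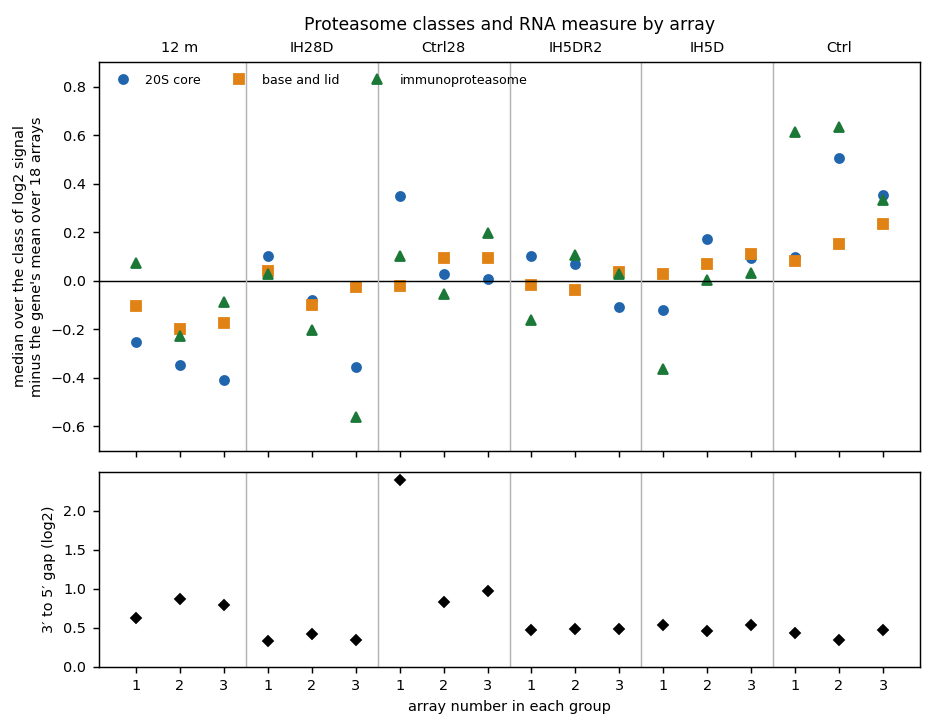
Median over the genes of the 20S core, the base and lid, and the immunoproteasome of the log2 signal minus each gene's mean over the 18 arrays (upper panel), with the 3′ to 5′ gap in log2 units of each array (lower panel). The core lies at -0.25 to -0.41 on the 12 m arrays and at 0.10 to 0.51 on the Ctrl arrays, and Ctrl28 array 1 has the widest gap.

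No immunoproteasome gene passed in IH5D or IH5DR2 against Ctrl or in IH28D against Ctrl28 by limma over all groups. An unadjusted p below 0.05 was found for 3, 2 and 1 of the 4, and for 3375, 3326 and 2899 of all 11657 genes. In the block fit of IH5D and Ctrl alone, which assumes a pairing that the labels do not state, Psmb8, Psmb10 and Psme1 fell (adjusted p = 0.0477, 0.00802 and 0.00532). In that fit 18.4% of all genes fell. In IH28D against Ctrl Psmb10 and Psme1 fell, by 0.56 and 0.68, with 15.8% of all genes falling. Psmb8 had 9.32, 12.1 and 15.1 on the IH5D arrays against 35.7, 21.3 and 24.8 on the Ctrl arrays, so that the groups did not overlap, at -1.16 (95% interval -2.05 to -0.26, adjusted p = 0.0852). All 3 IH5D arrays were below the minimum signal of 20. Psmb9, Psmb10 and Psme1 were at -0.65, -0.47 and -0.40 in IH5D (adjusted p = 0.262, 0.0908 and 0.1). In IH28D against Ctrl28, Psmb8 and Psmb9 were at -0.77 and -0.98 (adjusted p = 0.255 and 0.121), whereas Psmb10 and Psme1 were at -0.04 and 0.08. Of the interferon list, none of the 12 tested genes changed in IH5D by limma. Of them 3 had an unadjusted p below 0.05, against 29% of all genes. H2-D1, a class I heavy chain, rose by 0.89 in IH28D against Ctrl28, where 6.06% of all genes rose. In IH28D against Ctrl all 12 had a negative change, as had 6757 of all 11657 genes. Of the 12, 3 fell and none rose there, with 15.8% of all genes falling.

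The change after 28 days of IHT was tested against that after 5 days, each with its own control. The difference passed for 4 proteasome genes, 2 positive and 2 negative, where 6.58% of all genes had a positive and 3.08% a negative difference. It was 0.97 for Psmb7 and 0.81 for Psmd9, and -0.79 for Psmd14 and -0.63 for Psmd6, a further lid subunit. Without Ctrl28 array 1 the difference was positive for 4 and negative for 6 proteasome genes, of all genes 15.9% and 12.7%, and these included the 4 above, at 0.97, 0.92, -0.71 and -0.43, and Psmc6, at -0.98, and Psme4, at -0.71. For these 4 genes the Ctrl28 and Ctrl groups lay further apart than the treated groups did: Psmd14 averaged higher in Ctrl28 than in Ctrl by 0.67 on the log2 scale, while IH28D was at 0.24 and IH5D at 0.36 against Ctrl.

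Genes that work with the proteasome but fall outside the symbol rule were read from a list of 30, of which 21 were tested. At 12 m 6 rose and 3 fell, where 21.7% of all genes rose and 31.6% fell. Uba6, which activates ubiquitin, rose by 2.38, and Ecpas, which binds the 26S particle, rose by 1.59. Uchl5, a deubiquitinase of the cap, and Ngly1, which in mammals activates Nfe2l1, rose by 1.40 and 1.05, and Zfand5 and Ubqln2 by 0.66 and 0.25. Nploc4, a partner of Vcp, Zfand2a and Pomp, the maturation factor of the core, fell by 0.77, 0.53 and 0.41. Of these, 4 also rose in both short protocols, namely Uba6 (1.19 in IH5D and 1.13 in IH5DR2), Uchl5 (0.78 and 0.69), Ngly1 (0.61 and 0.69) and Zfand5 (0.53 and 0.52), and none fell. Of all genes 5.4% and 4.38% rose there. In Ctrl28 against Ctrl, without IHT, 8 of the 21 rose and 5 fell, where 16.9% of all genes rose and 21% fell. The 12 m, IH5D, IH5DR2 and Ctrl28 groups were all set against the same 3 Ctrl arrays. In IH28D against Ctrl28 Nploc4 rose by 0.63 and Txnl1, a thioredoxin bound to the cap, fell by 0.45, where 6.06% of all genes rose and 2.44% fell. Against Ctrl in place of Ctrl28, 7 of the 21 rose and 1 fell, with 17.5% and 15.8% of all genes.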

How the data were processed

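Hippocampal RNA of 18 samples was measured on Affymetrix Mouse 430 2.0 arrays. The authors computed signals and normalized arrays with MAS5 (version not given in the sources used here), and the deposited values are log2 signals, scaled so that every array has the same trimmed mean. Such scaling sets changes relative to the whole array. The 3 arrays of a group limit the precision. Of 45101 probe sets, 34958 were annotated to 1 gene. The probe set of highest mean unlogged signal stood for a gene, and genes with a mean above 20 were kept. Log2 values were fitted with limma 3.58.1 in R 4.3.3 (a mean per group over all 18 arrays, eBayes with trend), and p-values were adjusted over all 11657 genes. The fit was tested on simulated data. An exact permutation test of 3 against 3 arrays cannot go below p = 0.1 and was not used. The members and gene lists were chosen with earlier results of these data known. Values per array were given for the 4 largest rises and falls among members that passed in each comparison of the study, the member of smallest p in each class, the immunoproteasome and Psmb5, Psmb6 and Psmb7, and for some others after their values were seen.

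Same-numbered IH5D and Ctrl arrays, numbered by the labels, deviated together (r = 0.153, 0.289 and 0.239 over genes). The labels state no pairing and arrays of different numbers were not compared, so the pairing by number was an assumption drawn from these data. The other 3 comparisons of the study each had a pair below 0.1. Alternatives were no minimum signal, the mean of a gene's probe sets, median centring, quantile normalization, no variance trend, only the groups compared, the block, a term for the 3′ to 5′ gap, the methods' test and each array left out. A block fit of IH5D and Ctrl alone was added after seeing the data. Coordinates are those of GRCm38.p6.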

Additional observations from a re-analysis of the deposited data

Results flagged for a closer look

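The change after 28 days of IHT (IH28D against Ctrl28) differed from that after 5 days (IH5D against Ctrl) for 4 proteasome genes, by limma's test of the difference itself. For Psmb7, a catalytic subunit of the core, the difference was 0.97 on the log2 scale (adjusted p = 0.0451), from 0.66 in IH28D and -0.31 in IH5D. For the chaperone Psmd9 it was 0.81 (adjusted p = 0.029), from 0.60 in IH28D and -0.21 in IH5D. For the lid deubiquitinase Psmd14 it was -0.79 (adjusted p = 0.0128), from -0.43 in IH28D and 0.36 in IH5D, and for the lid subunit Psmd6 -0.63 (adjusted p = 0.0468), from -0.42 in IH28D and 0.21 in IH5D. The IHT periods have separate controls, which differed in these genes by -0.78, -0.77, 0.67 and 0.34 (Ctrl28 against Ctrl, in the same order), and period and control group cannot be told apart.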

How the results depend on the processing

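The number of proteasome genes called after short IHT depended on the processing. That at 12 m against Ctrl did so less, except under the methods' adjusted test. For IH5D (1 gene), none passed with no minimum signal, the mean of probe sets, median centring, no variance trend, the replicate block or the methods' adjusted test, giving 0, against 2 with quantile normalization, 6 in a fit of the 2 groups, 12 with a term for the 3′ to 5′ gap, 10 by the methods' unadjusted test and 24 with the replicate block in IH5D and Ctrl alone. For IH5DR2 (2 genes) the counts were 0 with no minimum signal, median centring, no variance trend, the replicate block and the methods' adjusted test, 1 with the mean of probe sets or quantile normalization, 11 in a fit of the 2 groups or with the gap, and 10 by the unadjusted test. For IH28D against Ctrl28 (6 genes) they were 1 with the mean of probe sets, 2 with median centring or quantile normalization, 0 in a fit of the 2 groups and by the methods' adjusted test and 3 by the unadjusted test, and the replicate block gave 4. At 12 m against Ctrl (29 genes) the methods' adjusted test gave 8 and the replicate block 28, and against Ctrl28 (15 genes) median centring gave 24 and the gap 8. For the difference between 28 and 5 days (4 genes) the count was 2 with no minimum signal, the mean of probe sets, quantile normalization, no variance trend or the replicate block, 0 with median centring and 10 with the gap. The counts over all genes moved as well. For IH5D 1314 rose and 816 fell in a fit of the 2 groups, and 1715 and 1197 with the gap. For IH5DR2 they were 1317 and 880, and 1610 and 1014. In IH28D against Ctrl28 34 rose and 1 fell in a fit of the 2 groups. At 12 m against Ctrl 854 rose and 663 fell by the methods' adjusted test, and for the difference 1916 and 1621 with the gap. The causes were not tested.

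With 1 array left out the counts ranged between 0 and 12 in IH5D, 0 and 13 in IH5DR2, 1 and 6 in IH28D against Ctrl28, 21 and 33 at 12 m against Ctrl, 3 and 28 in IH28D against Ctrl, 6 and 16 at 12 m against Ctrl28, 7 and 22 in Ctrl28 against Ctrl and 1 and 10 for the difference, and stayed at 0 for IH5DR2 against IH5D. The counts over all genes ranged as well. In IH5D none was called without Ctrl array 2 or 3, while 1656 rose and 1071 fell without Ctrl28 array 1. At 12 m against Ctrl 2062 rose and 2567 fell without Ctrl array 2, and 2749 and 4303 without Ctrl28 array 1. Median centring moved the median of all genes to -0.47 at 12 m against Ctrl, and their split to 1890 that rose and 5317 that fell, from 2524 and 3685. It gave 1548 and 2449 in IH28D against Ctrl, from 2041 and 1841, and 573 and 2204 at 12 m against Ctrl28, from 938 and 967. Among the proteasome genes it gave 0 that rose and 2 that fell in IH28D against Ctrl28. Of single genes, Psmc6 turned to -0.58 in IH28D against Ctrl28 with the gap as a covariate, and with the mean of probe sets Psmd11 turned to 0.058 in that comparison and Psmd9 to 0.090 at 12 m against Ctrl. Without Ctrl28 array 1, which has the widest gap, Psmc6 did not pass in IH28D against Ctrl28.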
